A study of Homo sapiens with 6 samples.

Results

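The genes of the BCR-ABL1 kinase and its nearest signalling partners were followed in K562 cells, a human erythroleukaemia line derived from chronic myeloid leukaemia. They are BCR and ABL1, which are joined in the fusion, the adaptors CRKL, GRB2, GAB2 and SOS1, the transcription factors STAT5A and STAT5B, and the kinases JAK2 and KIT. The counted transcripts were assigned to gene symbols by their identifiers, and 9 of the 10 genes had exactly 1 counted transcript. They were among 36436 genes with a matched coding, long noncoding or pseudogene transcript that spans more than 1000 bp. SOS1, the exchange factor that loads RAS with GTP, had no counted transcript that matched by identifier and was not analysed here.

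In chronic myeloid leukaemia a translocation places the end of ABL1 behind the start of BCR, and the resulting protein is a tyrosine kinase that is always active. BCR supplies an oligomerization domain and a tyrosine that, once phosphorylated, binds GRB2, which in turn recruits SOS1 and GAB2 and so reaches the RAS and PI3-kinase pathways. CRKL is a heavily phosphorylated substrate of the kinase, and STAT5A and STAT5B are transcription factors that the kinase activates. JAK2 activates the same factors downstream of cytokine receptors such as the erythropoietin receptor, and KIT is the receptor for stem cell factor on early blood cells.

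The study set nascent transcription against RNA level to estimate RNA stability across the genome. Precision run-on sequencing (PRO-seq, 2 libraries) counted engaged RNA polymerases along each transcription unit (TU), and sequencing of total RNA (RNA-seq, 4 libraries) counted RNA in its exons. The paper's main analysis used earlier published PRO-seq and poly-A+ RNA-seq data, and the 6 libraries used here served it for comparison. It reported that stability estimates from the earlier data varied less and were closer to other published estimates. The labels name K562 cells and no treatment for all 6 libraries, and the groups differ in the assay alone as far as they say. By the study's methods all libraries came from 1 flask of cells, so they are not separate cultures, and the p-values measure only the technical spread between libraries. K562 is a single line from 1 leukaemia.

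Depth on TUs was similar in both assays, from 5732780 to 9002746 counts in RNA-seq and 6993816 and 7245632 in PRO-seq. RNA-seq replicates 1 and 3 and replicates 2 and 4 resembled each other more (chi-square per degree of freedom 1.12 for each pair) than the other pairs (1.74 to 2.11), but each pair still differed by more than sampling noise, and all 4 were kept. Of the markers listed for K562, such as fetal globins, GATA1 and the transferrin receptor, 9 of 9 stood above 1 TPM in RNA-seq, and their summed level was 11860 to 12760 TPM over the libraries. Of 6 matched markers for T cells and for monocytes and granulocytes, CD3D (108.9 TPM) and LYZ (334.4 TPM) stood above 1 TPM, both epithelial markers did (KRT8 at 483.2 TPM, EPCAM at 119.9 TPM), 1 of 2 fibroblast markers did (COL1A2 at 1.36 TPM), and the B cell and liver markers did not. Their part in the members' levels was not tested, and in bulk RNA fewer expressing cells and less RNA per cell cannot be told apart.

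The fusion of K562 joins exon 14 of BCR to exon 2 of ABL1, and the reference sequence on each side of that join is shown because these edges decide which exons of each gene the fusion mRNA carries. The 30 bases on each side are from the GRCh37 genome, plus strand, at chr22:23632571-23632600 for BCR and chr9:133729451-133729480 for ABL1. Capitals mark the 6 bases next to the join. Both stretches are coding exon.
BCR exon 14, end: actcagccactggatttaagcagaGTTCAA
ABL1 exon 2, start: AAGCCCttcagcggccagtagcatctgact

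Promoters were read from RefSeq (GRCh38.p14), where 9 of the 9 members had an entry, and 4 are shown: that of BCR, which also starts the fusion transcript, that of ABL1, which lies inside the counted TU, and those of STAT5A and STAT5B, a pair of neighbouring genes with different levels. Each run is the 250 bases before a start site, at chr22:23180259-23180508 (plus strand) for BCR, chr9:130835004-130835253 (plus strand) for ABL1, chr17:42287297-42287546 (plus strand) for STAT5A and chr17:42276392-42276641 (minus strand) for STAT5B. Capitals mark GC boxes (GGGCGG) and CCAAT boxes (CCAAT) on either strand, and matches of 1 motif that overlap were counted separately.
BCR: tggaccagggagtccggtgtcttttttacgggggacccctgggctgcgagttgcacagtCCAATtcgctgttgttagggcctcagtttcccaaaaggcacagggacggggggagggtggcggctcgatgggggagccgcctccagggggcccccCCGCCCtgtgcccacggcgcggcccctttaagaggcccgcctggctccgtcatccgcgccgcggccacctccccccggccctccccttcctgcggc
ABL1: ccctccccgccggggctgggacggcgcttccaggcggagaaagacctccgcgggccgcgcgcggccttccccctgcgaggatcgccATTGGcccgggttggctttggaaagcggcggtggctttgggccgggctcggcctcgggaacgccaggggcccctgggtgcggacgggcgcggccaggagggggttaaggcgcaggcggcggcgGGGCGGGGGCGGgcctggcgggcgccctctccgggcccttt
STAT5A: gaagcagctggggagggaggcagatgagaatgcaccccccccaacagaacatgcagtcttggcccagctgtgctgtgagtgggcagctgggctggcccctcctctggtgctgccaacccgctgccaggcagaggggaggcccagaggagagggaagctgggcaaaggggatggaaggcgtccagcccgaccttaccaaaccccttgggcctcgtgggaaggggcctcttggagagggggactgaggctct
STAT5B: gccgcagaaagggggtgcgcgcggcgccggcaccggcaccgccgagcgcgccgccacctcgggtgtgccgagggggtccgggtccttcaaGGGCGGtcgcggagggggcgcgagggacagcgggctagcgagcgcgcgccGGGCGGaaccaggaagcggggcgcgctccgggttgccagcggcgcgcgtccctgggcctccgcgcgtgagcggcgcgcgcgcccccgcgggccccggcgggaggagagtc

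The BCR stretch held 1 GC box and 1 CCAAT box at 70.8% G+C, and the ABL1 stretch 2 GC boxes and 1 CCAAT box at 78.4% G+C. The STAT5B stretch held 2 GC boxes at 82% G+C, and the STAT5A stretch at its counted start held neither motif at 65.6% G+C. RefSeq gives STAT5A other starts as well, and the stretch before the one 951 bp downstream held 1 GC box at 74.4% G+C. Over all 35116 RefSeq promoters in the table, 42.6% held a GC box, 32.0% a CCAAT box, 10.7% a TATA box (TATAAA) and 6.57% the STAT motif TTCNNNGAA, each on either strand, and the median G+C content was 58%. No RefSeq entry of any member held the TATA or the STAT motif in this window. These matches describe letters and not binding.

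Most of the genes were strongly transcribed, and among the 8 with enough signal for the test RNA levels spread more widely than transcription. STAT5A had the most PRO-seq signal per length, CRKL the most RNA, and KIT the least of both. Levels are given in TPM (transcripts scaled to a fixed total per library), that is, counts divided by the exon length for RNA-seq or by the length of the TU less 1000 bp for PRO-seq, and then scaled. The thresholds were set at a PRO-seq level above 10 TPM with an RNA-seq level above 1 TPM. Among the 8 members past them the highest RNA-seq TPM was 15.7 times the lowest, and the highest PRO-seq TPM was 6.40 times the lowest. KIT, left out by the PRO-seq threshold, had 1.84 TPM in RNA-seq and 1.78 TPM in PRO-seq and would widen both spreads. By RNA-seq TPM the order was CRKL, STAT5A, GRB2, STAT5B, BCR, ABL1, JAK2, GAB2 and KIT, and no library of a gene overlapped those of its neighbour. By PRO-seq TPM it was STAT5A, CRKL, STAT5B, ABL1, BCR, GRB2, GAB2, JAK2 and KIT, where ABL1 and BCR overlapped. The plot of TPM by library shows the replicates of each assay and the changes in order between the assays.

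**Figure D1:**
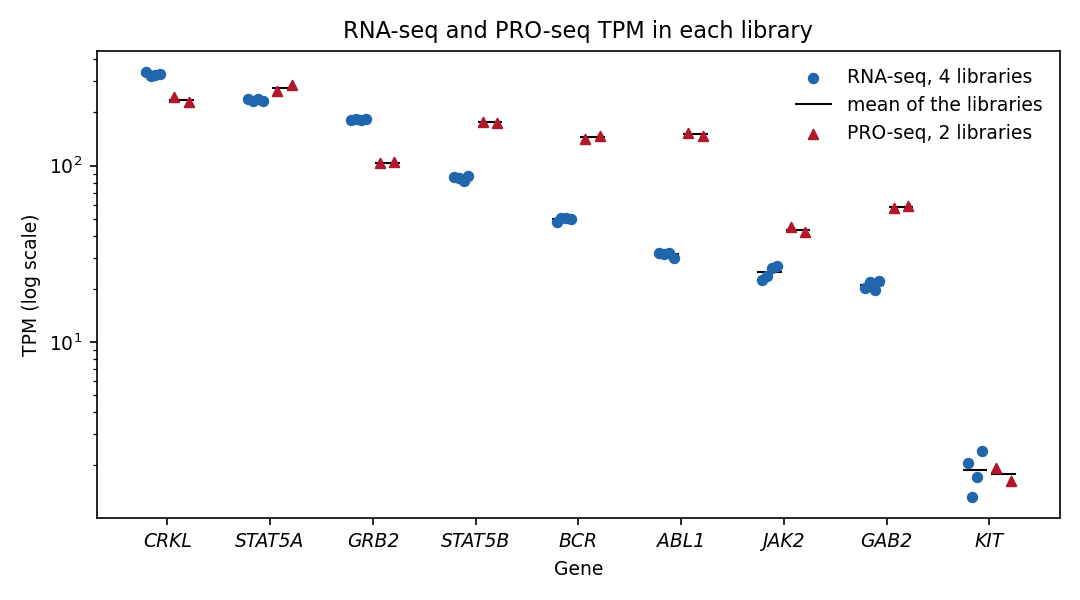
RNA-seq TPM (blue circles, 4 libraries) and PRO-seq TPM (red triangles, 2 libraries) of the 9 matched members on a log scale, with the mean of each assay as a black line, in order of RNA-seq TPM. CRKL and GRB2 have RNA-seq values above their PRO-seq values, whereas BCR and ABL1 have PRO-seq values near 145 and 150.0 TPM but RNA-seq values near 49.8 and 31.4 TPM.

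The ratio of RNA-seq TPM to PRO-seq TPM estimates relative half-life, a quantity without a time unit. At steady state the level of an RNA equals its production divided by its decay rate, and PRO-seq stands in for production. The paper gives as a limit that PRO-seq signal also depends on the elongation rate, an effect that appeared limited in its own checks. The part of elongation rate in the members' ratios was not tested. It is given on the log2 scale after subtracting the value of the median mRNA, so that 0 stands for the median of 8775 mRNAs past the thresholds, the middle 50% of which lay between -1.06 and 1.08. The spread of each estimate is the SD that follows from the spread of log2 TPM in both assays, and the range over the 8 ways of setting 1 RNA-seq against 1 PRO-seq library, called combinations. Each member was tested against the median mRNA by edgeR's quasi-likelihood test on the counts, with length offsets and Benjamini-Hochberg adjustment over all 10066 TUs past the thresholds.

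BCR and ABL1 were transcribed at nearly the same density, but their RNA levels differed, and both had less RNA than the median mRNA would have at that transcription. BCR, a GTPase-activating protein of RAC with a kinase domain of its own, spans 137.5 kb on chromosome 22 (chr22:23522696-23660224, GRCh37, plus strand) with 23 exons. Its RNA-seq level was 48.2, 50.7, 50.6 and 49.96 TPM in replicates 1 to 4, and its PRO-seq level was 142 and 148 TPM. The RNA-seq libraries lay close together (mean 49.9 ± 1.18 TPM, SD, n = 4) at percentile 82.7 of mRNAs, whereas the PRO-seq level stood at percentile 95.3. The log2 relative half-life of BCR was -0.85 (SD 0.05, range -0.91 to -0.81 over 8 combinations), that is 0.555 times the median mRNA, and the fitted difference was -0.85 (SE 0.04, edgeR adjusted p = 3.35e-19). It did not pass against a 2-fold difference (adjusted p = 1), and without TPM thresholds the fitted difference was -0.19.

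ABL1 encodes a cytosolic and nuclear tyrosine kinase, which the fusion turns into the leukaemic enzyme. Its counted TU covers 174.6 kb of chromosome 9 (chr9:133588430-133763062, GRCh37, plus strand) with 11 exons. The RNA-seq libraries gave 32.1, 31.4, 31.9 and 30.1 TPM, and the PRO-seq libraries 153 and 147 TPM. All RNA-seq values of ABL1 were below all those of BCR, while the PRO-seq values of the 2 genes overlapped. ABL1 had the lowest relative half-life of the members, -1.57 on the log2 scale (SD 0.06, range -1.68 to -1.49), or 0.338 times the median mRNA (fitted difference -1.57, SE 0.04, edgeR adjusted p = 1.87e-25). Its half-life stood at percentile 16.4 of mRNAs, and it was the only member that passed edgeR's test for a value more than 2-fold below the median mRNA (adjusted p = 9.18e-15).

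The difference between the fusion partners was in the RNA. BCR had 1.59 times the RNA-seq TPM of ABL1 (range 1.50 to 1.66 over 4 libraries), and 0.927 and 1.00 times its PRO-seq TPM in the PRO-seq libraries. BCR minus ABL1 was 0.72 in log2 relative half-life on average, between 0.58 and 0.84, and BCR was higher in 8 of 8 combinations, a description that was not tested as a difference between genes. The mRNAs nearest to BCR in the plane of log2 PRO-seq and log2 RNA-seq TPM were LEMD2, RPP25L and BAG1, within 0.02 to 0.05 log2 units, and those nearest to ABL1 were RHBDD3, RBM28 and PRSS21, within 0.04 to 0.07. Each of these 6 genes was shorter than its member, from 1.62 kb for RPP25L to 46.2 kb for RBM28. Most mRNAs are shorter than BCR and ABL1, as 6730 of the 8775 past the thresholds span less than 70 kb.

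The counts do not separate the fusion from the normal genes. The files give 1 count per TU, so reads of the BCR-ABL1 transcript were counted to whichever gene their exon belongs to, and fusion and normal transcripts cannot be told apart. The exons of BCR that enter the fusion, 14 of 23, hold 3234 nt or 47.7% of its counted exon length, and they end at 79.9% of the span. From ABL1 the fusion takes 10 of 11 exons with 5306 nt, 79.0% of the exon length, but the intron before them covers 139.6 kb and 79.9% of the span, so that only 33.6 kb from exon 2 to the end are sure to follow the join. PRO-seq was counted over the span of each counted transcript less 500 bp at each end, and RNA-seq over all of its exons. The map of exons shows this unequal layout of exons and introns.

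**Figure D2:**
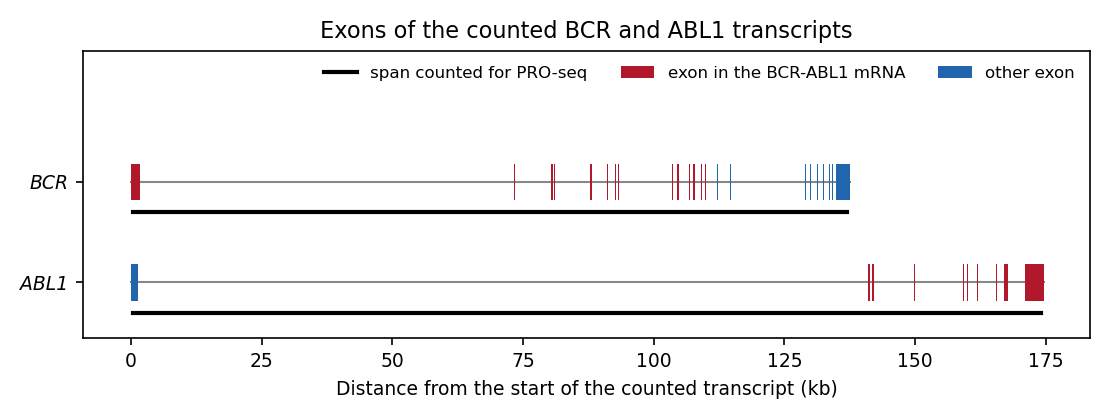
Exons of the counted BCR and ABL1 transcripts by distance from the transcript's start in kb, with exons carried by the fusion mRNA in red, other exons in blue, introns as a grey line and the span counted for PRO-seq as a black bar. The fusion exons of BCR lie in the first 109.9 kb, and those of ABL1 in the last 33.6 kb.

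The counted ABL1 transcript begins at the upstream of the gene's alternative starts, and the RefSeq promoter printed above lies 122.2 kb further along, inside the span. Polymerases that started at either place fall into the same PRO-seq count, and where they stood was not given. BCR has several partial copies on chromosome 22, and 14.7% of the 6709 windows of 75 bases (the RNA-seq read length) in its transcript occurred unchanged in annotated transcripts of 14 other genes, against 0.376% for ABL1. Counts on the named copies were small, with 10 RNA-seq and 36 PRO-seq counts on BCRP3 and 4 and 9 on BCRP1, beside 4590 and 9936 on BCR itself. The gene that shared the most windows with BCR (688), ENSG00000291044, is not among these named copies, and its counts are not given here. A same-strand TU, FBXW4P1, covers 0.91% of the PRO-seq span of BCR and held 310 RNA-seq and 0 PRO-seq counts. How many reads of BCR were lost as not uniquely aligned or to this TU was not tested.

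The adaptors split into a pair with more RNA than their transcription gives in the median mRNA, CRKL and GRB2, and GAB2 with less. The plot of the plane of both assays shows this split, with CRKL and GRB2 above the line and GAB2 below. CRKL, an SH2 and SH3 adaptor whose tyrosine phosphorylation is the usual readout of BCR-ABL1 activity, lies 36.3 kb long in 3 exons at chr22:21271695-21308035 (GRCh37, plus strand), on the same chromosome arm as BCR. Its RNA-seq level was 339, 321, 328 and 332 TPM, the highest of the members, and its PRO-seq level was 244 and 230 TPM. Both levels were high among mRNAs, at percentile 97.4 in RNA-seq and percentile 98.1 in PRO-seq. Its log2 relative half-life was 1.17 (SD 0.07, range 1.07 to 1.27), or 2.25 times the median mRNA, with a fitted difference of 1.17 (SE 0.04, edgeR adjusted p = 1.07e-22).

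GRB2 links phosphorylated tyrosines to SOS1 and GAB2 through its SH2 and SH3 domains. Its TU is at chr17:73314157-73401790 (GRCh37, minus strand) and has 5 exons in 87.6 kb. Relative to its level GRB2 was the most even of the members over RNA-seq libraries, with 180.4, 184, 181 and 183 TPM. Its PRO-seq level was 103 and 105 TPM. With less transcription than BCR or ABL1 it had several times their RNA. Its log2 relative half-life of 1.50 (SD 0.02, range 1.48 to 1.52) was the highest of the members, 2.84 times the median mRNA and at percentile 82.4 (fitted difference 1.50, SE 0.04, edgeR adjusted p = 3.31e-25).

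Both CRKL and GRB2 passed the test for a value more than 2-fold above the median mRNA (edgeR adjusted p = 2.06e-05 for CRKL and 3.67e-14 for GRB2). CRKL was nevertheless below GRB2 in log2 relative half-life in 8 of 8 combinations, with differences from -0.44 to -0.22. Its RNA-seq TPM was 1.81 times that of GRB2 and its PRO-seq TPM 2.37 and 2.19 times that of GRB2. A TU on the opposite strand, ENSG00000265987, covers 32.6% of the span of GRB2 and held 0 RNA-seq and 5 PRO-seq counts. Another on the same strand, ENSG00000264853, covers 2.07% of it and held 79 RNA-seq and 0 PRO-seq counts. Neither the CRKL nor the GRB2 transcript shares a 75-base window with another gene.

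GAB2, a docking protein that gathers PI3-kinase and the phosphatase SHP2, is the longest member at 202.5 kb (chr11:77926339-78128866, GRCh37, minus strand, 10 exons). Its RNA-seq level was 20.2, 21.8, 19.6 and 22.2 TPM, and its PRO-seq level 57.7 and 59.1 TPM. RNA of GAB2 was below that of CRKL and GRB2 in every library. Relative to the mean its libraries spread more, with an SD of 1.25 TPM around a mean of 21.0 TPM (n = 4). The SD was 7.67 TPM around 330 TPM for CRKL and 1.74 TPM around 182.3 TPM for GRB2. The log2 relative half-life was -0.79 (SD 0.09, range -0.90 to -0.71), or 0.580 times the median mRNA, with a fitted difference of -0.78 (SE 0.05, edgeR adjusted p = 2.76e-15), which became -0.12 without TPM thresholds. Its range overlapped that of BCR, so these neighbours in the order were not told apart. TUs on the opposite strand cover 45.7% of its span and held 1 RNA-seq and 84 PRO-seq counts, against 5913 PRO-seq counts on GAB2.

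STAT5A had more RNA and more transcription than its neighbour and near copy STAT5B, and the excess was larger in the RNA. The genes encode closely related transcription factors that bind DNA as dimers after tyrosine phosphorylation, and they lie head to head on chromosome 17, with 11.2 kb between their counted starts (chr17:40439565-40463961, plus strand, for STAT5A and chr17:40351195-40428409, minus strand, for STAT5B, GRCh37). STAT5A measured 238, 234, 237 and 232 TPM in RNA-seq and 265 and 288 TPM in PRO-seq. STAT5B measured 86.6, 85.4, 81.8 and 86.8 TPM in RNA-seq and 178 and 175 TPM in PRO-seq. No library of either gene overlapped the other in either assay.

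STAT5A was above the median mRNA and STAT5B below it. The log2 relative half-life of STAT5A was 0.46 (SD 0.09, range 0.37 to 0.53, fitted difference 0.46, SE 0.04, edgeR adjusted p = 6.33e-12), and that of STAT5B was -0.36 (SD 0.04, range -0.45 to -0.31, fitted difference -0.36, SE 0.04, edgeR adjusted p = 1.03e-09). STAT5A was higher in 8 of 8 combinations, by 0.70 to 0.96, with 2.76 times the RNA-seq TPM (range 2.67 to 2.90) and 1.49 and 1.65 times the PRO-seq TPM. These values rest on reads that could be placed, as 16.4% of the 4227 windows of 75 bases in the STAT5A transcript also occurred in a STAT5B transcript, and 8.41% of the 5005 windows of STAT5B in a STAT5A transcript. Same-strand TUs also cover 4.82% of the PRO-seq span of STAT5B, and none covers STAT5A. These TUs held 953 RNA-seq and 0 PRO-seq counts, against 5894 RNA-seq counts on STAT5B. Their part in the RNA level of STAT5B was not tested.

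The direction of STAT5B depended on which mRNAs set the zero. When every TU with a summed count in both assays was kept, without TPM thresholds, the ratio of the median mRNA moved by -0.63 on the log2 scale, and the fitted difference of STAT5B became 0.30 (edgeR adjusted p = 3.2e-11).

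JAK2 could not be told from the median mRNA, and KIT was transcribed too weakly for the test. JAK2, the kinase of the erythropoietin and thrombopoietin receptors, has 25 exons in 144.7 kb (chr9:4985272-5129948, GRCh37, plus strand), on the same chromosome as ABL1. It measured 22.5, 23.5, 26.4 and 26.8 TPM in RNA-seq and 44.6 and 41.8 TPM in PRO-seq. Its log2 relative half-life was -0.13 (SD 0.14, range -0.30 to 0.05), above the median mRNA in 2 of 8 combinations, and the fitted difference of -0.12 (SE 0.06) missed the threshold (edgeR adjusted p = 0.057). It passed below the median mRNA without RNA-seq replicate 3 (-0.15, edgeR adjusted p = 0.027), without RNA-seq replicate 4 (-0.16, adjusted p = 0.015) or without PRO-seq replicate 2 (-0.18, adjusted p = 0.028), and stood above it without TPM thresholds (0.54, adjusted p = 3.8e-21).

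KIT (chr4:55524124-55606881, GRCh37, plus strand, 21 exons in 82.8 kb) was at a low level in both assays. Its RNA-seq counts were 41, 28, 23 and 37, or 2.05, 1.33, 1.71 and 2.40 TPM, and its PRO-seq counts were 39 and 34, or 1.92 and 1.64 TPM. The PRO-seq level lay below the threshold of 10 TPM, at percentile 38.2 of mRNAs, so KIT entered no test of the main comparison. Its log2 relative half-life of 0.74 (SD 0.40) ranged from 0.14 to 1.24 over 8 combinations, the widest range of the members, and overlapped both CRKL and STAT5A. In the fit without TPM thresholds, with its lower zero, KIT differed from the median mRNA by 1.40 (SE 0.24, edgeR adjusted p = 1.3e-08).

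Of the 8 members tested, 3 were above the median mRNA (GRB2, CRKL and STAT5A), against 40.1% of all TUs tested, and 4 were below it (STAT5B, GAB2, BCR and ABL1), against 50.2%. These shares were near the background, and the median log2 relative half-life of the members, -0.24, equalled that of all 10066 TUs tested to 2 decimals. Against a 2-fold difference, 2 were above (21.4% of all TUs) and 1 below (29.5%). Without TPM thresholds, 6 of the 9 matched members were above, against 31.9% of all 20931 TUs tested there, and 3 below, against 37.1%. The members lay on both sides of the median mRNA. The plot of relative half-life shows the order GRB2, CRKL, KIT, STAT5A, JAK2, STAT5B, GAB2, BCR and ABL1, in which CRKL and KIT, KIT and STAT5A, and GAB2 and BCR were neighbours with overlapping ranges.

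The length of the genes was set beside these values, since most members are long. The 4 tested members over 100 kb (BCR, ABL1, GAB2 and JAK2) ran from -1.57 to -0.13 in log2 relative half-life, and the other 4 from -0.36 to 1.50, so that the groups overlapped at JAK2 and STAT5B. This split depended on the bound. GRB2 (87.6 kb) and STAT5B (77.2 kb) are below 100 kb but above the 70 kb used next for all mRNAs. With a bound of 70 kb the longer tested members would run from -1.57 (ABL1) to 1.50 (GRB2). Over mRNAs past the thresholds the median log2 relative half-life was 0.05 for the 2045 with a span of at least 70 kb and -0.02 for the 6730 shorter ones. The part of length in the members' values was not tested. Among these mRNAs the median span was 29.6 kb and the median number of exons 9.

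The rest of the pathway was described by 7 lists of 69 reported genes, of which 63 had exactly 1 matched transcript and 43 passed the thresholds. By the edgeR test 16 of the 43 were above the median mRNA, 23 were below it and 4 passed in neither direction, near the 40.1% and 50.2% of all TUs tested. The proximal adaptors and phosphatases, which act beside GRB2 and CRKL, divided evenly, with 5 of 10 above and 5 below and a median of -0.14, which turned to 0.21 over the 7 genes past thresholds of 20 and 2 TPM and to 0.53 without TPM thresholds (5 above, 3 below). Their highest value was that of DOK1, a docking protein that restrains RAS signalling (log2 relative half-life 2.15, fitted SE 0.15, edgeR adjusted p = 2.83e-14). It rested on 72 PRO-seq counts, and its range over combinations (1.74 to 2.63) held that of the next gene, PTPN11 (1.99 to 2.18), so their order was not resolved. Their lowest was that of GAB1, the sister of GAB2 (-1.22, SE 0.09, edgeR adjusted p = 1.13e-13). The range of CBL (-1.43 to -0.93) held that of GAB1 (-1.32 to -1.08), so this order was not resolved either.

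Among the ABL and SRC family kinases, 1 of 4 was above and 2 were below (3 and 1 without TPM thresholds), from YES1 (0.36, SE 0.04, edgeR adjusted p = 1.03e-10) down to ABL2, the sister of ABL1 (-1.96, SE 0.06, adjusted p = 3.82e-23). In the cascade from RAS to ERK, 5 of 9 were above and 3 below, with a median of 0.57, and 7 above and 1 below without TPM thresholds. There the highest was HRAS (1.82, SE 0.25, edgeR adjusted p = 1.02e-07), with 28 PRO-seq counts, and its fitted difference was 1.28 without PRO-seq replicate 2 and 2.65 without PRO-seq replicate 1, below and above that of MAP2K1 (1.56 and 1.63). The lowest was BRAF, a kinase that RAS activates (-1.45, SE 0.05, adjusted p = 4.34e-23). In the branch from PI3-kinase to AKT, 1 of 7 was above and 5 were below, which became 6 above and 1 below without TPM thresholds, with AKT1 highest (1.64, SE 0.06, edgeR adjusted p = 7.71e-21) and the catalytic subunit PIK3CB lowest (-1.75, SE 0.05, adjusted p = 1.14e-24).

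The other JAK and STAT genes reported here and past the thresholds included none below the median mRNA, with 4 of 5 above. Of all TUs tested, 40.1% were above and 50.2% below. Against a 2-fold difference 0 of the 5 were above, and without TPM thresholds 5 were. The 5 genes ran from JAK1 (0.62, SE 0.05, edgeR adjusted p = 3.08e-13) to STAT2, which did not pass the test (-0.06, SE 0.07, adjusted p = 0.461), with a median of 0.52. The range of JAK1 over combinations (0.56 to 0.69) overlapped those of STAT3 (0.51 to 0.59) and STAT6 (0.395 to 0.60), so their order was not resolved. All 7 tested genes known as STAT5 targets were below the median mRNA, with a median of -0.86, where 50.2% of all TUs tested were below. There were 3 below against a 2-fold difference, 6 with DESeq2, and 4 below and 2 above without TPM thresholds (median -0.20). They ran from SOCS3 (-0.44, SE 0.20, edgeR adjusted p = 0.0425) to CISH (-3.14, SE 0.09, adjusted p = 2.88e-24), which both encode inhibitors of cytokine signalling. Neither end of this order was resolved. The range of SOCS1 over combinations (-3.61 to -1.53, on 28 PRO-seq counts) held that of CISH (-3.32 to -3.01). That of SOCS3 (-0.75 to -0.10) held those of BCL2L1 (-0.54 to -0.42) and PIM2 (-0.57 to -0.41). SOCS3 rested on 59 PRO-seq counts and lost its call without PRO-seq replicate 2 (-0.17, edgeR adjusted p = 0.599). The PRO-seq level of CISH was 328 TPM, against an RNA-seq level of 23.1 TPM. CCND2, another listed target, named here after its value was seen, had 5014 RNA-seq counts and was listed at 0 in both PRO-seq libraries. A TU on the same strand, ENSG00000285901, covers 100% of its PRO-seq span and held 181 PRO-seq counts, so the 0 gives no measure of its transcription. The last list held 10 genes, cytokine receptors and receptor kinases together with KITLG, which encodes the ligand of KIT. Of these 1 passed the thresholds, the erythropoietin receptor EPOR (-1.38, SE 0.16, edgeR adjusted p = 1.75e-09). Like KIT, the other 9 listed genes were below 10 TPM in PRO-seq.

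Set beside their sister genes, which were picked after the lists had been computed, the members were mostly the more abundant of each pair. CRKL had 4.90 times the RNA-seq TPM of CRK and 3.02 and 2.56 times its PRO-seq TPM, and its log2 relative half-life was higher by 0.62 to 1.01. ABL1 had 4.35 times the RNA-seq TPM of ABL2 and 3.38 and 3.14 times its PRO-seq TPM. GAB2 had 5.91 times the RNA-seq TPM of GAB1 and 4.44 and 4.35 times its PRO-seq TPM.

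Both ABL1 and GAB2 were higher than the sister in log2 relative half-life in 8 of 8 combinations, by 0.20 to 0.58 and by 0.20 to 0.55, although both genes of each pair were below the median mRNA. JAK2 went the other way, with 0.519 times the RNA-seq TPM of JAK1 and 0.909 and 0.823 times its PRO-seq TPM, and with log2 relative half-lives from -0.89 to -0.59 relative to JAK1. STAT5B was transcribed at 2.08 and 2.01 times the PRO-seq TPM of STAT3 but had 1.08 times its RNA-seq TPM. STAT5A had 2.98 times the RNA-seq TPM of STAT3 and 3.1 and 3.3 times its PRO-seq TPM. Relative to STAT3, log2 relative half-lives ran from -0.96 to -0.89 for STAT5B and from -0.20 to -0.003 for STAT5A. These ratios are descriptions over libraries, and no difference between 2 genes was tested.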

How the data were processed

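The authors deposited raw read counts per transcript for 2 PRO-seq and 4 RNA-seq libraries, without normalization; the submitters' notes name cutadapt for trimming, HISAT2 for alignment and HTSeq for counting, on GRCh38, with the ends of each TU left out for PRO-seq. Rows naming no TU took up 66.5% to 68.6% of RNA-seq records and 86.5% and 88.6% of PRO-seq records, and were left out. Lengths and GRCh37 coordinates came from GENCODE (lifted to GRCh37), joined by transcript identifier (88.1% of 42371 matched), and can differ from those counted. Nested TUs held a PRO-seq count in 68.0% of 1255 cases on the opposite strand and 2.79% of 501 on the same strand, so counting used strand. edgeR 4.0.16 (R 4.3.3) used TMM and length offsets. DESeq2 1.42.0 was an alternative. The fit was tested on simulated data. Members, gene lists and tests were chosen with earlier results of these data known. Genes named were the members, the highest and lowest tested gene reported of each list, the 3 mRNAs nearest to BCR and ABL1, and overlapping genes and copies, beside exceptions stated. MCL1, with 2 counted transcripts, and 5 unmatched listed genes were not used, and some listed genes are not reported here. Counting error alone does not cover differences between cultures.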

Additional observations from a re-analysis of the deposited data

How the results depend on the processing

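The choice of mRNAs that set the zero had the largest effect among the alternatives run. With at least 1 summed count in each assay and no TPM thresholds, 6 members were above the median mRNA, with 6668 TUs above and 7755 below of 20931. There STAT5B turned to 0.30 and JAK2 to 0.54. Against a 2-fold difference 1 member was below (2154 TUs above, 2969 below), and BCR, GAB2, STAT5A and STAT5B lost their calls (edgeR adjusted p = 1 each). ABL1, CRKL and GRB2 kept direction and call in 14 of 14 alternatives (log2 relative half-life -1.61 to -0.91, 1.12 to 1.83 and 1.46 to 2.17), and BCR, GAB2 and STAT5A their direction (-0.89 to -0.19, -0.83 to -0.12 and 0.41 to 1.12). JAK2 also passed below the median mRNA with 500 bp removed for PRO-seq (-0.17, adjusted p = 0.01), with thresholds of 20 and 2 TPM (-0.16, adjusted p = 0.014) and with the replicate block (-0.22, adjusted p = 0.005). Differences between replicates 1 and 2 correlated at -0.0091 between the assays over 9973 TUs. As all libraries came from 1 flask, this cannot settle whether the same replicate numbers mark paired libraries. With the replicate block 3945 TUs were above and 4947 below the median mRNA, and 3 and 5 members. DESeq2 called 3 members above and 4 below, as did summing RNA-seq replicates 1 and 3 and replicates 2 and 4. Depth limits KIT, with 129 RNA-seq and 73 PRO-seq counts in all.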
